A study of Mus musculus with 12 samples.

Results

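The genes described here encode the machinery that copies nuclear DNA during S phase, together with the enzymes that supply its nucleotides and the regulators E2f1 and Gmnn. They are 44 genes listed by function and taken wherever the platform annotation of the array gives a probe that gene symbol. Of these, 42 had a probe among the 17711 genes named on the array. Mcm3 and Gins1 matched no annotated probe and were not analysed here. A probe entered the tests when 3 or more of the 12 arrays gave it a detection p under 0.01, and 37 of the 42 genes passed that filter among 9526 genes tested. The 5 that did not pass were Orc1 and Orc2 of the origin recognition complex, Cdc45 of the active helicase, and the polymerase subunits Pola1 and Pole2. Orc1, Cdc45, Pola1 and Pole2 were detected on 0 arrays, and Orc2 on 1 neurosphere array.

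Cells from C57Bl/6 mice were compared in 4 groups with 3 biological replicates each, every replicate on its own Illumina MouseWG-6 expression array. Ependymal cells of the adult lateral ventricle wall (LVW) and of the adult spinal cord (SC), the ciliated cells that line the ventricles and the central canal, were both sorted from tissue as CD133+/CD24+ cells lacking CD45 and CD34. Radial glia, the neural progenitors of the embryo, were sorted from embryonic day 14.5 forebrain as CD133+ cells lacking CD24, CD45 and CD34. Neurospheres are floating colonies that neural progenitors form in culture. Those used here were derived from spinal cord ependymal cells and were not sorted before the RNA was taken. Radial glia thus differed from both ependymal groups in age and sort gate at once. They also differed from SC cells in region, while LVW cells came from the lateral ventricle wall of the forebrain. Neurospheres differed from SC ependymal cells in culture and in the absence of a sort. From radial glia and LVW cells they also differed in region of origin, and radial glia were embryonic as well.

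DNA replication begins when the origin recognition complex, Cdc6 and Cdt1 load the ring of MCM proteins onto DNA in G1. Geminin, the product of Gmnn, binds Cdt1 and stops loading once S phase has begun. The Cdc7 kinase with its partner Dbf4 then fires origins, the GINS complex joins the helicase, and polymerases held by the clamp PCNA copy both strands. Many of these genes are transcribed at the G1 to S boundary by E2F factors, and their RNA tends to be higher in dividing cells than in cells at rest. Cell division was not measured in these data.

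Promoter sequences are printed because E2F binding is the best known common input of this set. They are those of the genes given array by array below whose windows held E2F letters, with Tk1 as an example of the genes whose windows held none. RefSeq (GRCm38.p6) gave 43 promoter windows for 36 of the 44 genes, each running from 250 bases before to 50 bases after the annotated start. The windows were searched on both strands for the E2F letters TTTCCCGC, TTTGGCGC, TTTCGCGC and TTTGCCGC, of which different strings can overlap, and for CCAAT, the letters of the NF-Y box, which shares no full match with them. E2F letters were present in 13 of the 43 windows (30.2%), against 744 of 32851 windows (2.26%) for all genes in the same table. CCAAT was present in 53.5% of the windows of these genes and in 37.4% of all windows. The sequences below run 5′ to 3′ on the strand of the gene, with E2F letters in capitals.
Mcm5 (chr8:75109259-75109558, plus strand): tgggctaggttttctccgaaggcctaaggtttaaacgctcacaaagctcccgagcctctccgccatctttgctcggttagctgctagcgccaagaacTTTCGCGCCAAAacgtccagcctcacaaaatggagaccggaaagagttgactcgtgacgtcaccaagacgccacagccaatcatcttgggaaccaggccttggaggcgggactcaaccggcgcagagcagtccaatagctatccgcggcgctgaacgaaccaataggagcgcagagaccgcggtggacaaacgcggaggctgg
Mcm7 (chr5:138171834-138172133, minus strand): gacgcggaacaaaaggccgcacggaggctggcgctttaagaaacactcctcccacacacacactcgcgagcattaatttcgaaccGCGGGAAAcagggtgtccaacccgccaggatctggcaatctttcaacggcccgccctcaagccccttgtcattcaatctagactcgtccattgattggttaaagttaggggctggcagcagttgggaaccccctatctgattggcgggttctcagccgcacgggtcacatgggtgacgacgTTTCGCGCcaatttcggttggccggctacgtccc
Cdc6 (chr11:98907901-98908200, plus strand): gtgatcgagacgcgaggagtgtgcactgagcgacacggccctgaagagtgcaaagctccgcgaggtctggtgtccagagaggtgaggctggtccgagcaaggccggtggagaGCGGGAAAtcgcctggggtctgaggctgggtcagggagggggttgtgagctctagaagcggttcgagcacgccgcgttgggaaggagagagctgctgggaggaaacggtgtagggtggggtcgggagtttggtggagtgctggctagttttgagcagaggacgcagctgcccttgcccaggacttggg
Pold1 (chr7:44548766-44549065, minus strand): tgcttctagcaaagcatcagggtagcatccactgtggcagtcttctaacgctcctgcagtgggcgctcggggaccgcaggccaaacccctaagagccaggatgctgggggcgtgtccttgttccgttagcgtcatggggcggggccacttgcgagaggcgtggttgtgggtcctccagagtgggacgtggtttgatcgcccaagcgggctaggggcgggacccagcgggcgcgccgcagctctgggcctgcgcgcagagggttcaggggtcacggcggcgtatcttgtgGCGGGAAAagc
Rfc3 (chr5:151651159-151651458, minus strand): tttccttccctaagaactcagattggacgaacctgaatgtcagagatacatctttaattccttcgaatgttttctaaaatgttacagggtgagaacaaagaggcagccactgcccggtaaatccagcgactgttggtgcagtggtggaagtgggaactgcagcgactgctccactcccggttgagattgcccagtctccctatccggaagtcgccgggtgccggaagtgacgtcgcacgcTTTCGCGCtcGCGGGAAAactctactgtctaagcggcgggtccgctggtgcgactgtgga
Tk1 (chr11:117825965-117826264, minus strand): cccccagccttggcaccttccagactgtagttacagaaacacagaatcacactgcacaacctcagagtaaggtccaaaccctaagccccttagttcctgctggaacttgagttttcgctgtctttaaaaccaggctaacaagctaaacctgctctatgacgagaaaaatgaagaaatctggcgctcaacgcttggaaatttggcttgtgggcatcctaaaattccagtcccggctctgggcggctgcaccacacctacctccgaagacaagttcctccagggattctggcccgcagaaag
In Mcm5 the capitals are a pair of overlapping matches that begin 153 and 149 bases before the start. Mcm7 held matches beginning 165 bases before and 16 bases after the start of the window shown, and the other Mcm7 window held none. The Cdc6 match began 138 bases before the start, the Pold1 match 39 bases after it, and the Rfc3 matches lay at and just before the start. The window of Tk1 held no E2F letters. The same was true of Mcm2, Cdc7, Pcna, Rfc4, Rpa1, Rpa2, Fen1, Tyms, Dut and E2f1, whose windows are not printed. A match is a description of the letters and shows no binding.

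The labels of the groups were compared with marker genes before the replication genes were read. Ependymal markers averaged 12.42 to 12.66 on the log2 scale in both ependymal groups, 7.31 to 8.56 in radial glia and 5.96 to 6.33 in neurospheres. The radial glia arrays detected all 7 pericyte and mural cell markers, at a mean of 10.18 to 11.04 against 5.87 to 6.37 on the other arrays, where Acta2 was the only one detected in every group, and 8 of 9 intermediate progenitor and neuron markers on all 3 arrays. Of 9 radial glia and neural progenitor markers, 7 were detected on all 3 radial glia arrays, while Fabp7, a defining radial glia gene, was detected on 0. The mean of these 9 was 9.43 to 9.58 in radial glia, 8.03 to 9.01 in LVW, 8.32 to 8.58 in SC and 9.59 to 9.83 in neurospheres. The part of pericytes, mural cells, intermediate progenitors and neurons in the results below was not tested. In RNA from many cells, fewer cells of a type cannot be told apart from less RNA per cell. Neurosphere replicate 3 stood apart in its group, with a mean raw intensity of 654 against 199 and 248 for the other two and correlations of 0.87 and 0.90 with them, so the counts, medians and correlations of neurosphere comparisons are also given without it.

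Replication genes were detected more widely in radial glia and neurospheres than in ependymal cells. All 3 radial glia arrays detected 37 of the 42 genes with a probe. LVW ependymal arrays detected 25 to 27 of them, SC ependymal arrays 28 or 29, and neurosphere arrays 34, 36 and 38. The share of all named genes detected differed less between the groups, with 44.27 to 46.95% on radial glia arrays, 41.07 to 52.37% on neurosphere arrays, 39.97 to 43.94% on SC arrays and 41.94 to 43.97% on LVW arrays. Detection on every one of the 12 arrays was found for 14 genes, among them Mcm4, Mcm6, Mcm7, Gins4, Pold1, Rfc2, Rpa1, Rrm1 and E2f1. Every gene that passed the filter was detected on all 3 radial glia arrays, but 36 of the 37 would also have passed without those arrays. The exception was Gmnn.

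**Figure D1:**
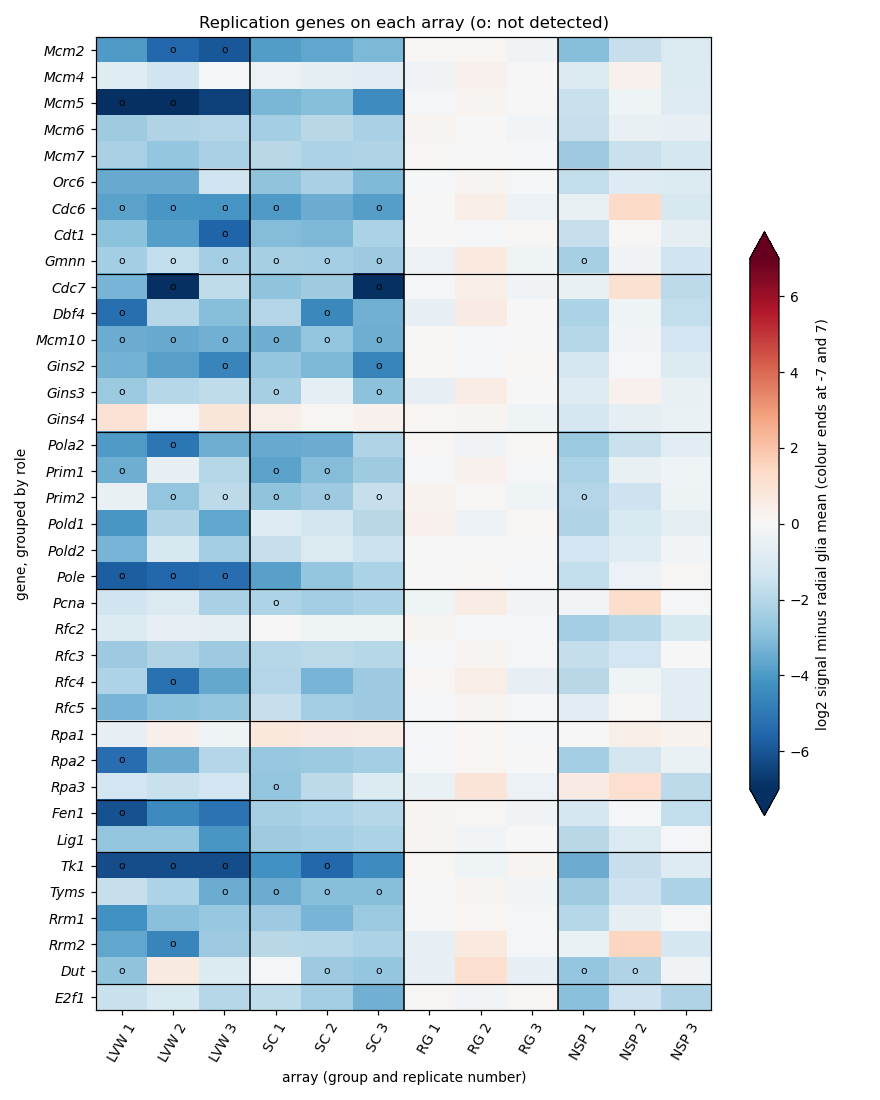
Colour gives the log2 signal of each of the 37 tested genes (rows, grouped by role) on each of the 12 arrays (columns) minus the mean of the 3 radial glia arrays, with the colour scale ending at -7 and 7, and circles mark arrays on which the probe was not detected. Most rows are blue on the LVW and SC arrays and pale on the radial glia and neurosphere arrays, with Gins4, Rpa1, Mcm4 and Rfc2 as rows that stay pale in ependymal cells.

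Ependymal cells of both regions had far lower signal for replication genes than embryonic radial glia. In LVW cells 31 of the 37 genes were called at an adjusted p under 0.05 (limma, adjusted over all 9526 genes), 31 lower and 0 higher, where 36.5% of all genes tested were called, 1881 lower and 1592 higher. In SC cells 30 were called, 30 lower and 0 higher, where 31.8% of all genes were called, 1620 lower and 1413 higher. The median difference from radial glia was -2.95 in LVW and -2.42 in SC on the log2 scale, while the medians over all genes were -0.19 and -0.14. Gmnn passed the filter only through the radial glia arrays and so had to be higher there. Of the 36 other genes, 30 were lower in LVW and 29 in SC, with medians of -3.06 and -2.45, where 17.3% and 14.3% of the 8887 genes that passed without those arrays were lower. With undetected groups set to their bound, the medians of the replication genes were -2.82 and -2.27. The genes not called lower in either region were Mcm4, Gins4, Rfc2, Rpa1, Rpa3 and Dut, and Pold1 was not called in SC. Leaving out each array in turn kept 26 of the 31 calls in LVW and 24 of the 30 in SC every time. Both comparisons use the same 3 radial glia arrays.

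**Figure D2:**
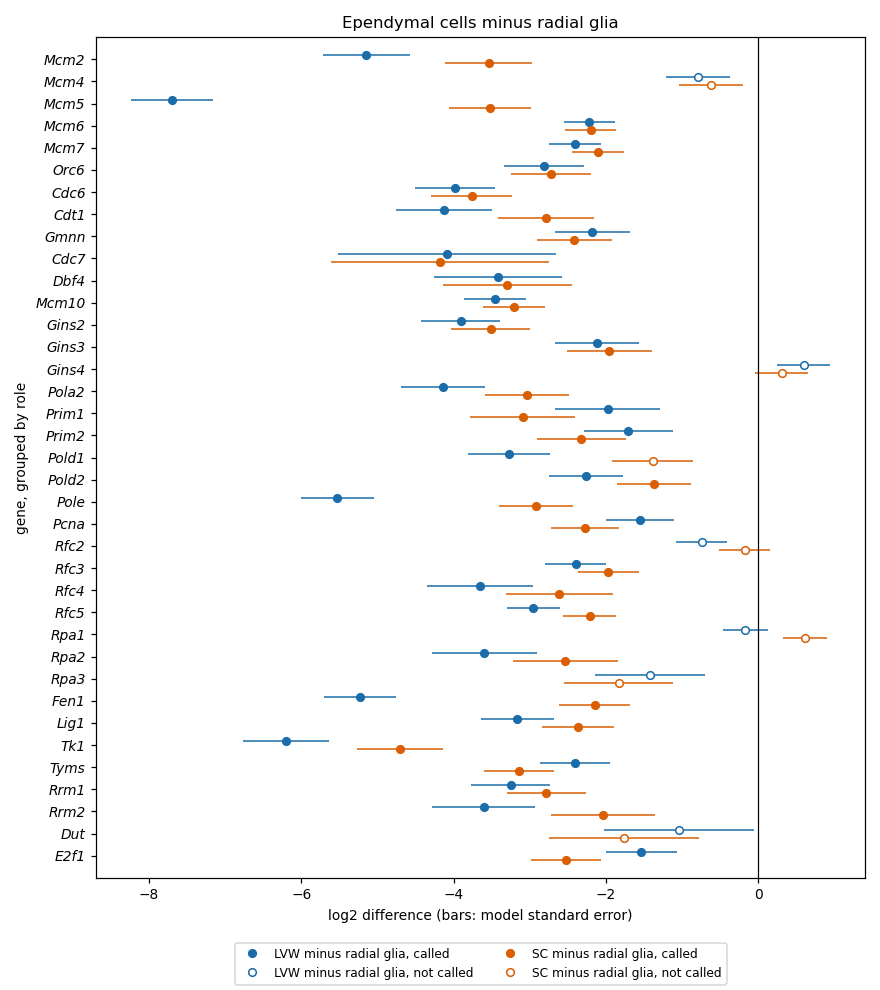
Points give the log2 difference of LVW (blue) and SC (orange) ependymal cells from radial glia for each of the 37 tested genes, with bars of 1 model standard error and filled points for an adjusted p under 0.05. Called genes lie between -1.37 and -7.70, and Gins4 and Rpa1 lie closest to or above 0.

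The 2 ependymal groups differed in 3 replication genes. Mcm5, Fen1 and Pole were higher in SC than in LVW cells, and 0 genes were lower. Over all genes tested 3.09% were higher in SC and 4.95% were lower. The median difference over the 37 genes was 0.39, against 0.05 over all genes. In either direction 8.04% of all genes were called, so 3 of 37 is a share near the background. The same holds at an unadjusted p under 0.05, where 8 of the 37 differed and 21.9% of all genes did. The mean of 5 endothelial markers was 5.74 to 7.81 on the LVW arrays and 5.02 to 5.23 on the SC arrays, and 1 of the 5 was called lower in SC. Cldn5, Flt1, Tek and Slco1c1 were detected on 0 SC arrays. Of these, Slco1c1 was detected on 3 LVW arrays, and Cldn5, Flt1 and Tek on 1 each. The signal of the latter was highest on LVW replicate 2, at 9.68, 8.13 and 5.80. The part of these markers in the result was not tested.

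Neurospheres had higher signal than the SC ependymal cells from which they were derived for 15 of the 37 genes, against 15.5% of all genes tested, and lower signal for 2, Gins4 and Rfc2, against 14.7%. The median difference was 1.54. Compared with LVW cells, 23 genes were higher in neurospheres, against 17.3% of all genes, and Gins4 and Rfc2 were again lower, against 16.4%, with a median difference of 1.99. Compared with radial glia, 0 genes were higher and 6 were lower, Mcm2, Mcm7, Rfc2, Tk1, Tyms and E2f1, against 11.1% of all genes lower and 9.23% higher, with a median of -1.01. Of the other 31 genes, 29 had a difference below 0 that did not pass the test. The 95% intervals of single differences reached from 0.64 to 3.14 on either side of the estimate, so a gene without a call may still differ by a factor above 2.

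The neurosphere counts depended on single arrays. Without neurosphere replicate 3, the genes called against SC were 14 in place of 17, with a median of 1.42, and against LVW 23 in place of 25, with a median of 1.82. Against radial glia they were 10 in place of 6, with a median of -1.14. Over all genes, the count against radial glia also changed with 1 array left out, from 1276 to 2943 in place of 1933. Without neurosphere replicate 2, 9 replication genes were called against SC, 8 higher and 1 lower. Without SC replicate 1 or SC replicate 2, 11 were called in each case, 10 higher and 1 lower. With every array left out in turn, 9 of the 17 calls against SC, 4 of the 6 against radial glia and 16 of the 25 against LVW held each time. The calls against SC that did so included Cdc6, Mcm10, Gins2, Pcna, Rfc2, Rfc5 and Tk1.

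**Figure D3:**
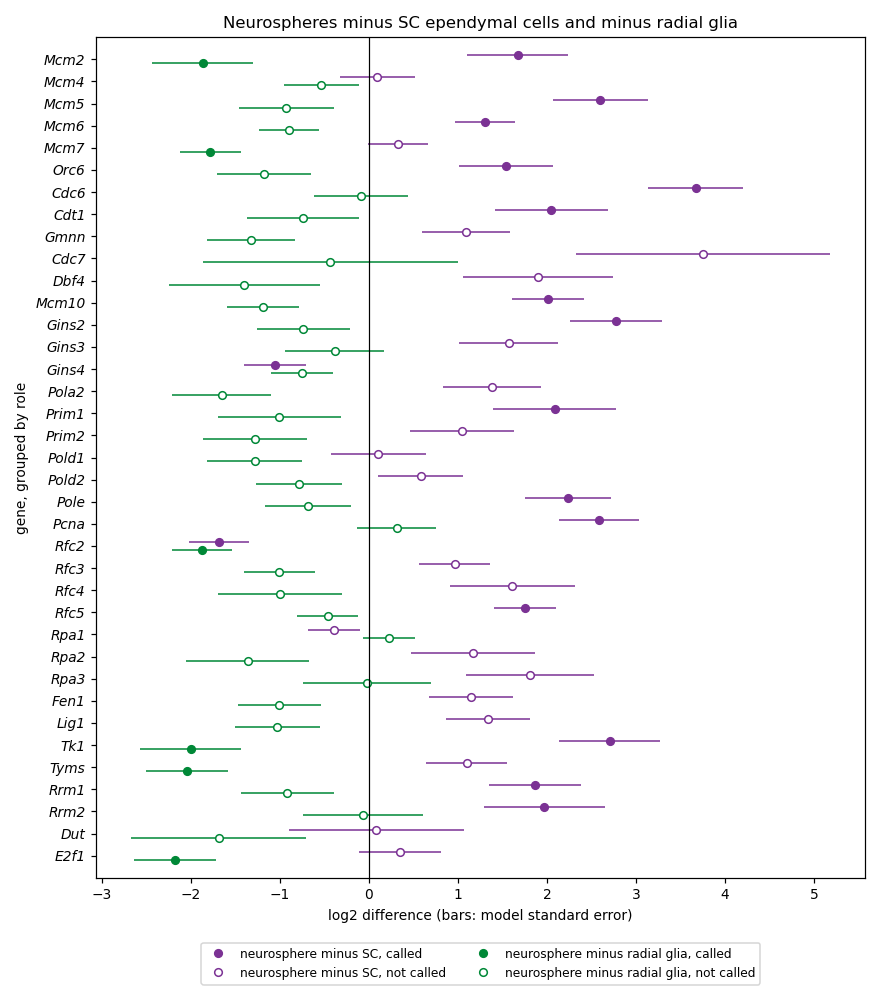
Points give the log2 difference of neurospheres from SC ependymal cells (purple) and from radial glia (green) for each of the 37 tested genes, with bars of 1 model standard error and filled points for an adjusted p under 0.05. Most genes lie between the 2 groups, above SC cells and below radial glia, while Gins4 and Rfc2 lie below both.

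Among the MCM helicase subunits, Mcm5 set the groups apart most. Its log2 signal was 4.50, 4.65 and 6.32 on the LVW arrays, 9.66, 9.86 and 8.45 in SC, 12.70, 13.03 and 12.83 in radial glia, and 11.28, 12.55 and 11.95 in neurospheres. LVW cells were lowest and detected it on 1 array, SC cells were intermediate, and no array of the ependymal groups reached the lowest neurosphere array. Mcm5 fell by 7.70 ± 0.54 (model standard error) in LVW against radial glia (limma, adjusted p = 8.35e-07) and fell by 3.53 ± 0.54 in SC (adjusted p = 0.000388). It was higher by 4.17 ± 0.54 in SC than in LVW (adjusted p = 0.000676) and by 2.60 ± 0.54 in neurospheres than in SC (adjusted p = 0.00356). Between neurospheres and radial glia the difference was -0.93 ± 0.54, with an adjusted p of 0.262.

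Mcm2, whose product is another subunit of the ring, measured 6.72, 5.19 and 4.74 in LVW, 6.81, 7.08 and 7.57 in SC, 10.81, 10.84 and 10.45 in radial glia, and 7.70, 9.10 and 9.69 in neurospheres. All neurosphere arrays lay above all SC arrays and below all radial glia arrays. Mcm2 rose by 1.67 ± 0.57 in neurospheres against SC (limma, adjusted p = 0.0445) and fell by 1.87 ± 0.57 against radial glia (adjusted p = 0.0382). The first of these calls was lost in 9 of the 12 fits with 1 array left out (adjusted p up to 0.131) and the other in 6 (up to 0.162).

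Mcm7 measured 9.76, 9.36 and 9.79 in LVW, 10.09, 9.80 and 9.91 in SC, 12.10, 12.05 and 11.98 in radial glia, and 9.51, 10.46 and 10.82 in neurospheres. Here neurospheres overlapped with SC cells, and radial glia alone were high. The difference between neurospheres and SC was 0.33 ± 0.34 (adjusted p = 0.506), whereas Mcm7 fell by 1.78 ± 0.34 in neurospheres against radial glia (limma, adjusted p = 0.00309).

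Mcm4 differed least between the groups among the subunits. Its log2 signal was 12.37, 11.82 and 13.10 in LVW, 12.80, 12.57 and 12.42 in SC, 12.96, 13.52 and 13.19 in radial glia, and 12.24, 13.54 and 12.29 in neurospheres. LVW and neurosphere arrays overlapped with radial glia, and no comparison was called for it. The difference from radial glia was -0.79 ± 0.42 in LVW and -0.63 ± 0.42 in SC, with 95% intervals of -1.72 to 0.13 and -1.55 to 0.30. Mcm6 fell by 2.22 ± 0.33 in LVW and fell by 2.20 ± 0.33 in SC against radial glia, and was higher by 1.30 ± 0.33 in neurospheres than in SC (limma, adjusted p = 0.0119, and 0.053 without neurosphere replicate 2).

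**Figure D4:**
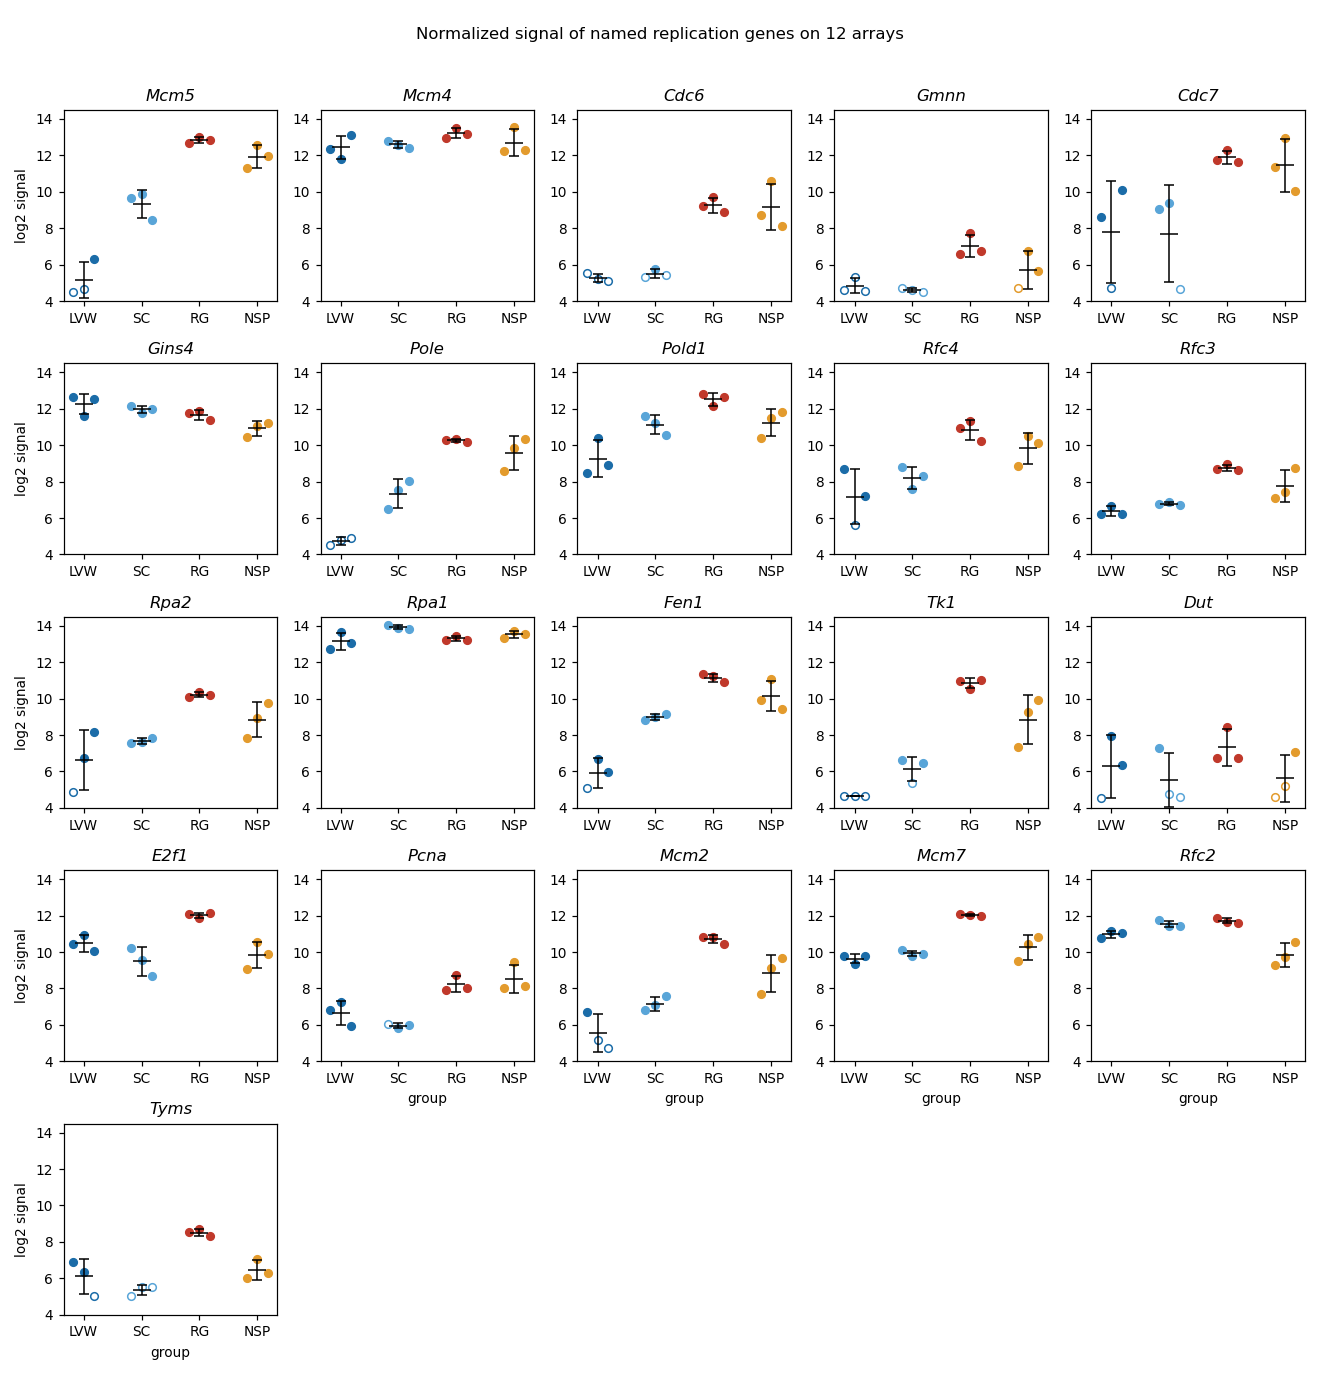
Each panel plots the log2 signal of 1 gene on the 12 arrays, with filled points for arrays on which the probe was detected, open points for those on which it was not, and bars for the mean ± SD of 3 arrays. Mcm5 and Fen1 step up from LVW to SC to radial glia, Tk1 and Cdc6 are near the lowest measured signal in LVW, and Rpa1 and Mcm4 are high on all arrays.

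Of the licensing genes, Cdc6, Cdt1 and Orc6 were lower in both ependymal groups than in radial glia, where 1881 of all 9526 genes were lower in LVW and 1620 in SC. Cdc6, which loads the MCM ring, measured 5.53, 5.19 and 5.11 in LVW, 5.30, 5.78 and 5.40 in SC, 9.21, 9.71 and 8.86 in radial glia, and 8.74, 10.61 and 8.14 in neurospheres. The ependymal arrays lay at the floor, with detection on 0 LVW arrays and 1 SC array, and neurospheres overlapped with radial glia. Cdc6 was at least 10.5-fold lower in LVW than in radial glia (limma, adjusted p = 0.000123) and fell by 3.76 ± 0.53 in SC (adjusted p = 0.000217). It was higher by 3.67 ± 0.53 in neurospheres than in SC (adjusted p = 0.000312), the largest called difference of the set in that comparison.

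Gmnn, the inhibitor of loading, measured 4.62, 5.32 and 4.58 in LVW, 4.70, 4.62 and 4.49 in SC, 6.60, 7.71 and 6.74 in radial glia, and 4.69, 6.75 and 5.64 in neurospheres. It was detected on 0 ependymal arrays and on 2 of 3 neurosphere arrays. Since it was kept only through the radial glia arrays, no test against them is given. Its difference of 1.09 ± 0.49 between neurospheres and SC had an adjusted p of 0.118 (limma). Cdt1, the partner that geminin blocks, was higher by 2.05 ± 0.63 in neurospheres than in SC (adjusted p = 0.0292), and this call was lost without SC replicate 1 or 2 or neurosphere replicate 2 or 3 (adjusted p up to 0.121). Orc6 of the origin recognition complex was higher by 1.54 ± 0.53 (adjusted p = 0.0455), a call lost in 8 of the 12 fits with 1 array left out (up to 0.139).

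Of the 6 origin firing genes, 5 were lower in both ependymal groups than in radial glia, against the 19.7% of all genes that were lower in LVW and the 1620 of 9526 in SC. The call of Gins3 in SC was lost in 4 of 12 fits with 1 array left out (limma, adjusted p up to 0.0807). Cdc7, the kinase that fires origins, measured 8.62, 4.69 and 10.09 in LVW, 9.04, 9.40 and 4.65 in SC, 11.75, 12.27 and 11.63 in radial glia, and 11.36, 12.94 and 10.05 in neurospheres. In each ependymal group 1 array lay at the floor and the other two far above it. Cdc7 had the widest errors of the set, with differences from radial glia of -4.08 ± 1.43 in LVW (limma, adjusted p = 0.0434) and -4.19 ± 1.43 in SC (adjusted p = 0.0437). With 1 array left out, the LVW call was lost in 6 of 12 fits and the SC call in 5, and without the array at the floor (LVW replicate 2, SC replicate 3) the differences were -2.53 and -2.66 (adjusted p = 0.153 and 0.166).

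Gins4, a subunit of the GINS complex, behaved unlike its partners. Its log2 signal was 12.66, 11.61 and 12.53 in LVW, 12.15, 11.79 and 11.98 in SC, 11.78, 11.86 and 11.36 in radial glia, and 10.47, 11.07 and 11.21 in neurospheres. Every neurosphere array lay below every other array. Gins4 fell by 1.06 ± 0.35 in neurospheres against SC (limma, adjusted p = 0.0385) and fell by 1.35 ± 0.35 against LVW (adjusted p = 0.0111). The call against SC was lost in 7 of 12 fits with 1 array left out (adjusted p up to 0.145), and that against LVW without neurosphere replicate 1 (0.0518). Its difference from radial glia was 0.60 ± 0.35 in LVW and 0.31 ± 0.35 in SC. Gins2, of the same complex, fell by 3.91 ± 0.52 in LVW against radial glia and was higher by 2.78 ± 0.52 in neurospheres than in SC (adjusted p = 0.00189). Mcm10, which helps to start the helicase, had a radial glia signal at least 4.51-fold that of LVW cells and at least 4.25-fold that of SC cells. Its other kept probe, detected on 3 arrays, differed from radial glia by only -0.83 in LVW and -0.80 in SC.

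All 6 polymerase and primase genes tested were lower in LVW cells than in radial glia, and 5 of the 6 in SC cells, against 1881 and 1620 of all 9526 genes. With 1 array left out, the LVW calls of Prim1 and Prim2 were each lost in 7 of 12 fits (limma, adjusted p up to 0.152 and 0.138) and the SC call of Pold2 in 9 (up to 0.128). Pole, the catalytic subunit of the leading strand polymerase epsilon, measured 4.51, 4.78 and 4.93 in LVW, 6.47, 7.54 and 8.03 in SC, 10.28, 10.35 and 10.17 in radial glia, and 8.56, 9.84 and 10.35 in neurospheres. The LVW, SC and radial glia arrays did not overlap, and LVW cells detected it on 0 arrays. Pole was at least 21.1-fold lower in LVW than in radial glia (limma, adjusted p = 4.5e-06) and at least 2.79-fold higher in SC than in LVW (adjusted p = 0.00635). It was higher by 2.23 ± 0.48 in neurospheres than in SC (adjusted p = 0.00457). In the authors' deposited values the difference between SC and LVW was 1.14, with an adjusted p of 0.0757.

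Pold1, the catalytic subunit of polymerase delta, measured 8.46, 10.40 and 8.89 in LVW, 11.63, 11.22 and 10.56 in SC, 12.81, 12.14 and 12.63 in radial glia, and 10.41, 11.48 and 11.84 in neurospheres. SC and neurosphere arrays overlapped. It fell by 3.28 ± 0.54 in LVW against radial glia (limma, adjusted p = 0.000562), while its difference from radial glia in SC, -1.39 ± 0.54, had an adjusted p of 0.0696. Between SC and LVW it differed by 1.89 ± 0.54, with an adjusted p of 0.0542. The primase subunit Prim1 was higher by 2.09 ± 0.69 in neurospheres than in SC (adjusted p = 0.0397), a call lost in 7 of 12 fits with 1 array left out (adjusted p up to 0.133).

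Pcna, the sliding clamp, measured 6.82, 7.24 and 5.95 in LVW, 6.04, 5.81 and 6.01 in SC, 7.91, 8.73 and 8.03 in radial glia, and 8.04, 9.43 and 8.14 in neurospheres. Neurospheres overlapped with radial glia and lay above all ependymal arrays. Pcna was higher by 2.59 ± 0.45 in neurospheres than in SC (limma, adjusted p = 0.0011), and its difference from radial glia was 0.31 ± 0.45 (adjusted p = 0.689). In LVW it fell by 1.56 ± 0.45 against radial glia (adjusted p = 0.0173), a call lost without LVW replicate 3 (0.0567) or radial glia replicate 2 (0.0713), and in SC it fell by 2.27 ± 0.45 (adjusted p = 0.00216).

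The clamp loader subunits did not share a single pattern. Rfc4 measured 8.68, 5.62 and 7.24 in LVW, 8.78, 7.59 and 8.29 in SC, 10.93, 11.32 and 10.24 in radial glia, and 8.87, 10.51 and 10.11 in neurospheres. It fell by 3.65 ± 0.70 in LVW (limma, adjusted p = 0.00161) and fell by 2.61 ± 0.70 in SC (adjusted p = 0.0138) against radial glia. The SC call was lost without SC replicate 2 (0.0554) or radial glia replicate 2 (0.0556). The SC arrays did not overlap with the neurosphere arrays, but the difference between them, 1.61 ± 0.70, had an adjusted p of 0.105.

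Rfc3 measured 6.20, 6.68 and 6.20 in LVW, 6.76, 6.87 and 6.74 in SC, 8.67, 8.95 and 8.66 in radial glia, and 7.08, 7.40 and 8.77 in neurospheres. Neurosphere replicate 3 alone reached the radial glia range. The difference of 0.96 ± 0.40 between neurospheres and SC had an adjusted p of 0.0913.

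Rfc2 ran the other way in culture. It measured 10.76, 11.14 and 11.03 in LVW, 11.74, 11.44 and 11.44 in SC, 11.89, 11.66 and 11.61 in radial glia, and 9.27, 9.71 and 10.57 in neurospheres. All neurosphere arrays lay below all other arrays. In neurospheres Rfc2 fell by 1.69 ± 0.34 against SC (limma, adjusted p = 0.00287), fell by 1.87 ± 0.34 against radial glia (adjusted p = 0.0022) and fell by 1.12 ± 0.34 against LVW (adjusted p = 0.0239). The call against LVW was lost without LVW replicate 2 (0.0655) and without neurosphere replicate 1 or 2 (0.104 and 0.0746). Its other kept probe differed by -0.13, -0.16 and 0.18 in these comparisons, so the 2 probes disagreed. Rfc5 was higher by 1.75 ± 0.35 in neurospheres than in SC (adjusted p = 0.0027).

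The 3 subunits of RPA, which coats single-stranded DNA, also differed. Rpa1, the largest subunit, measured 12.74, 13.64 and 13.03 in LVW, 14.06, 13.90 and 13.82 in SC, 13.24, 13.46 and 13.23 in radial glia, and 13.32, 13.74 and 13.54 in neurospheres. It was high on all arrays, SC arrays lay above all others, and no comparison was called. The largest difference was 0.79 ± 0.29 between SC and LVW, with an adjusted p of 0.137.

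Rpa2 measured 4.90, 6.76 and 8.18 in LVW, 7.56, 7.62 and 7.85 in SC, 10.10, 10.35 and 10.18 in radial glia, and 7.85, 8.94 and 9.76 in neurospheres. The LVW arrays spanned over 3 log2 units, and radial glia lay above every other array. Rpa2 fell by 3.60 ± 0.69 in LVW (limma, adjusted p = 0.0017) and fell by 2.53 ± 0.69 in SC (adjusted p = 0.0155, and 0.0502 without radial glia replicate 2) against radial glia. Rpa3, the smallest subunit, was not called in any comparison.

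Both lagging strand genes were lower in ependymal cells than in radial glia. Fen1, the nuclease that trims the flaps of Okazaki fragments, measured 5.07, 6.70 and 5.96 in LVW, 8.84, 8.97 and 9.17 in SC, 11.33, 11.22 and 10.89 in radial glia, and 9.90, 11.08 and 9.45 in neurospheres. LVW, SC and radial glia formed 3 separate ranges. Fen1 was higher by 3.08 ± 0.47 in SC than in LVW (limma, adjusted p = 0.00207) and fell by 5.24 ± 0.47 in LVW and fell by 2.15 ± 0.47 in SC against radial glia (adjusted p = 5.83e-06 and 0.00442). Its difference of 1.15 ± 0.47 between neurospheres and SC had an adjusted p of 0.0894, although those arrays did not overlap. Lig1, the ligase that joins the fragments, fell by 3.17 ± 0.48 in LVW and fell by 2.37 ± 0.48 in SC against radial glia, and its difference between SC and LVW, 0.80 ± 0.48, was not called.

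Among the nucleotide supply genes, Tk1, the cytosolic thymidine kinase, had the widest range. It measured 4.64, 4.63 and 4.65 in LVW, 6.60, 5.36 and 6.44 in SC, 10.96, 10.53 and 11.03 in radial glia, and 7.35, 9.24 and 9.93 in neurospheres. The 4 groups did not overlap, with LVW at the floor on all 3 arrays. Tk1 was at least 31.5-fold lower in LVW than in radial glia (limma, adjusted p = 6.74e-06) and fell by 4.71 ± 0.57 in SC (adjusted p = 6.73e-05). The other kept probe of this gene, detected on 4 arrays, differed less, by -2.06 in LVW and -2.04 in SC. In neurospheres Tk1 was higher by 2.71 ± 0.57 than in SC (adjusted p = 0.00396) and fell by 2.00 ± 0.57 against radial glia (adjusted p = 0.0278). The latter call was lost without any 1 of the radial glia arrays or without neurosphere replicate 1 (adjusted p = 0.0829 to 0.0921 for 3 of these and 0.0512 for radial glia replicate 2).

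Tyms, which makes the thymidine nucleotide, measured 6.91, 6.37 and 5.03 in LVW, 5.04, 5.54 and 5.54 in SC, 8.52, 8.70 and 8.33 in radial glia, and 6.02, 7.09 and 6.30 in neurospheres. Radial glia lay above all other arrays, and neurospheres overlapped with LVW. Tyms fell by 2.05 ± 0.46 in neurospheres against radial glia (limma, adjusted p = 0.00834), but of its 3 kept probes 1 differed by 0.13 in that comparison. It was at least 5.9-fold lower in SC than in radial glia (adjusted p = 0.000283).

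The subunits of ribonucleotide reductase, which makes deoxyribonucleotides, were both lower in ependymal cells. Rrm1 was higher by 1.87 ± 0.52 in neurospheres than in SC (limma, adjusted p = 0.018) and Rrm2 by 1.97 ± 0.68 (adjusted p = 0.0465). The Rrm1 call was lost without SC replicate 2 or neurosphere replicate 2 or 3 (adjusted p up to 0.0691), and the Rrm2 call in 9 of 12 fits with 1 array left out (up to 0.182). The lower signal of Rrm2 in SC than in radial glia, -2.04 ± 0.68, was likewise lost in 7 of 12 (up to 0.138). The other kept probe of Rrm2 differed by -0.16 between neurospheres and SC. Dut, which removes dUTP, measured 4.52, 7.95 and 6.36 in LVW, 7.26, 4.78 and 4.61 in SC, 6.73, 8.46 and 6.76 in radial glia, and 4.59, 5.22 and 7.08 in neurospheres. It overlapped between all groups and was not called in any comparison.

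E2f1, the transcription factor, did not follow most of the other genes in culture. It measured 10.44, 10.95 and 10.04 in LVW, 10.22, 9.58 and 8.66 in SC, 12.07, 11.84 and 12.13 in radial glia, and 9.07, 10.54 and 9.90 in neurospheres. Radial glia lay above all other arrays, and the other groups overlapped. E2f1 fell by 2.18 ± 0.46 in neurospheres (limma, adjusted p = 0.00603), fell by 2.53 ± 0.46 in SC (adjusted p = 0.00137) and fell by 1.54 ± 0.46 in LVW (adjusted p = 0.022) against radial glia. The LVW call ended when either of LVW arrays 1 and 3, or either of radial glia arrays 1 and 3, was removed (adjusted p between 0.0506 and 0.0675). Between neurospheres and SC the difference was 0.35 ± 0.46, with a 95% interval of -0.67 to 1.36.

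Within the neurosphere group, replication genes differed together between arrays. All 37 genes were higher on replicate 2 than on replicate 1, by 0.32 (Rfc3) to 2.06 (Gmnn), with a median of 1.18 and 25 genes at 1 or more. Over all genes tested 47.2% were higher on replicate 2, with a median of -0.02, and the 2 arrays correlated at 0.97. Replicate 3 was also higher than replicate 1 for 32 of the 37 genes, with a median of 0.95, where 53.3% of all genes were higher, with a median of 0.05. On the authors' deposited values replicate 2 was also higher for 37 of 37. The median SD of these genes was 0.21 on the radial glia arrays and 0.85 on the neurosphere arrays, against 0.32 and 0.50 over all genes. On the LVW arrays it was 0.79 and on the SC arrays 0.40, against 0.59 and 0.33.

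**Figure D5:**
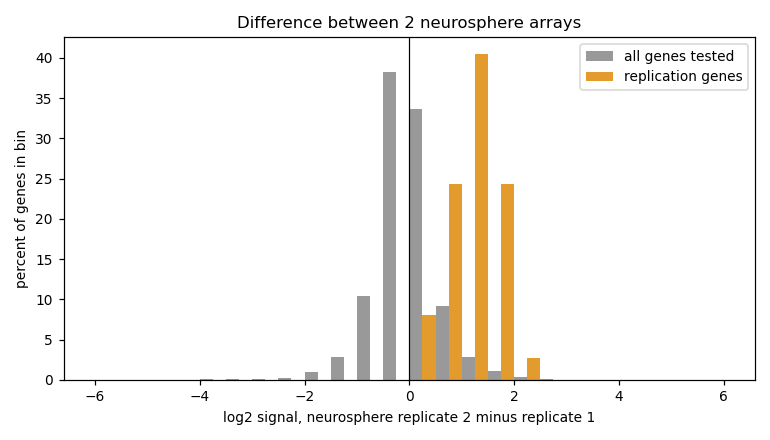
Bars give the percent of the 37 replication genes (orange) and of all 9526 genes tested (grey) in each bin of the log2 signal on neurosphere replicate 2 minus replicate 1, in bins 0.5 wide with both bars inside their bin. All replication genes lie above 0, with a median of 1.18, and the grey bars centre on -0.02.

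Genes with related roles outside the list were read from 5 further lists, of which 79 genes were tested. Against radial glia 45 were lower and 1 higher in LVW, and 44 were lower and 3 higher in SC, where 36.5% and 31.8% of all genes were called. Of the 66 that passed the filter without the radial glia arrays, 34 were lower in LVW and 34 in SC, against 17.3% and 14.3% of all genes that passed in that way. In neurospheres 27 were higher and 2 lower than in SC, against 15.5% and 14.7% of all genes. Compared with radial glia 8 were lower and 1 higher, no larger a share than the 11.1% and 9.23% of all genes. Without neurosphere replicate 3 these counts were 27 and 3, and 16 and 2. The shares of all genes given here are from the fit to all 12 arrays and are no background for those counts. With 1 array left out, the count over all genes between neurospheres and radial glia ranged from 1276 to 2943, in place of 1933. Among 22 further replisome and origin genes, 12 were lower in LVW and 12 in SC than in radial glia, against 1881 and 1620 of all 9526 genes. Dscc1, Pold4, Rnaseh2c, Timeless and Top1 of this list would not have passed the filter without the radial glia arrays. The filter thus favoured a higher signal there for these genes. Clspn, the mediator of the replication checkpoint, fell by 5.31 ± 0.69 in LVW (limma, adjusted p = 0.000105) and fell by 4.87 ± 0.69 in SC (adjusted p = 0.000232) against radial glia, and was higher by 3.88 ± 0.69 in neurospheres than in SC (adjusted p = 0.0014). Ticrr, which helps to fire origins, was higher by 3.29 ± 0.60 in neurospheres than in SC (adjusted p = 0.00159). Orc3 of the origin recognition complex went the other way and was higher by 2.05 ± 0.68 in SC than in radial glia (adjusted p = 0.0382), a call lost in 6 of 12 fits with 1 array left out (up to 0.123).

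Of 7 genes for chromatin assembly at the fork, 4 were lower in each ependymal group than in radial glia, against 1881 (LVW) and 1620 (SC) of all 9526 genes. Asf1b of this list would not have passed the filter without the radial glia arrays. Chaf1b, a subunit of the CAF-1 histone chaperone, was at least 12.9-fold lower in LVW than in radial glia (limma, adjusted p = 6.4e-05) and was higher by 2.14 ± 0.60 in neurospheres than in SC (adjusted p = 0.0183). That last call was lost without SC replicate 1 or neurosphere replicate 2 or 3 (up to 0.0756). Its partner Chaf1a moved the opposite way in culture and fell by 2.63 ± 0.46 against SC (adjusted p = 0.00114).

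Of 14 genes of the G1 to S control, 11 were lower in LVW and 10 in SC than in radial glia, where 1881 and 1620 of all 9526 genes were lower. Ccna2, Ccne1, E2f2 and E2f7 of this list would not have passed the filter without the radial glia arrays. The filter thus favoured a higher signal there for these genes. E2f3 was higher by 3.63 ± 0.89 (limma, adjusted p = 0.00948) and Tfdp1, the dimer partner of E2F factors, at least 5.14-fold higher (adjusted p = 0.00112) in neurospheres than in SC. Rb1, which restrains E2F factors, was higher by 1.22 ± 0.38 in SC than in radial glia (adjusted p = 0.0283), a call lost in 5 of 12 fits with 1 array left out (up to 0.119).

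Of 18 further nucleotide genes, 9 were lower in LVW, 11 were lower in SC than in radial glia, and 9 were higher in neurospheres than in SC, against 19.7% of all genes, 1620 of 9526 and 15.5%. Umps of this list would not have passed the filter without the radial glia arrays. Dctd, which deaminates dCMP, was higher by 4.08 ± 0.68 in neurospheres than in SC (limma, adjusted p = 0.000852). Of 18 genes for replication stress and repair, LVW cells had 9 lower and 1 higher than radial glia (19.7% and 16.7% of all genes), and SC cells had 7 lower and 1 higher (1620 and 1413 of 9526). In neurospheres 3 were higher and 1 lower than in SC, 4 of 18 called where 30.2% of all genes were called, so the count did not exceed the background there. Atm and Bard1 of the repair list would not have passed the filter without the radial glia arrays. The gene higher than in radial glia was Chek2, a checkpoint kinase, in both ependymal groups, with differences of 2.24 ± 0.44 in LVW and 3.39 ± 0.44 in SC from radial glia (adjusted p = 0.00182 and 0.000109) and it fell by 3.67 ± 0.44 in neurospheres against SC (adjusted p = 7.11e-05). Ung, which removes uracil from DNA, was at least 6.86-fold higher in neurospheres than in SC (adjusted p = 0.000249).

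Comparisons that share no array can be set side by side without a common control. Across the 37 genes, the difference of LVW from radial glia and that of neurospheres from SC had a Pearson r of -0.66, and across all 9526 genes -0.53. For SC from radial glia and neurospheres from LVW the values were -0.65 and -0.51. Without neurosphere replicate 3 they were -0.57 and -0.50 for the first pair and -0.62 and -0.48 for the other. Genes are not independent replicates, so these are descriptions of the gene set on these 12 arrays.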

How the data were processed

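RNA was extracted, amplified in 2 rounds and biotin labelled, per the labels' protocols. The authors deposited raw probe intensities with a detection p-value per probe and array, and a table of processed values whose log2 scale was found from the values. BeadStudio and lumi are named in the submitters' processing notes, without a version. The normalization of the deposited log2 values is not given in the sources used here, and they served as an alternative only.

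From the deposited intensities, negative controls were inferred from the detection p-values and neqc of limma 3.58.1 (R 4.3.3) corrected the background (offset 16), quantile normalized and took log2. Probes with a detection p under 0.01 on at least 3 of 12 arrays were kept. Of 46632 probes, 29976 carried 1 gene symbol in the platform annotation, 10 several and 16646 none. A gene was represented by its kept probe with the highest mean, and 10 of the replication genes had several kept probes. The 4 groups entered 1 limma fit (lmFit, eBayes) with 6 comparisons, Benjamini-Hochberg adjustment over 9526 genes and a threshold of 0.05. Errors of differences are the model's standard errors over 3 arrays a group, whose number limits the precision. Differences are on the log2 scale after an offset, which understates changes of dim genes. Where a group detected a probe on 0 arrays, its level was replaced by the lowest signal among detected probes and the change is given as at least that fold. Levels of different probes were not compared.

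The genes, lists and comparisons were chosen with earlier results of these data known. Values on every array are given for the gene of each role with the largest radial glia difference, the gene of each role with the smallest difference between neurospheres and SC, for Mcm5, Tk1 and Pcna, and for genes called between SC and LVW or neurospheres and radial glia. Of the wider lists up to 4 called genes a direction are eligible. The fit was tested on simulated data. The labels do not say that replicate numbers pair samples, and the main fit used no pairing. Of 18 same-numbered pairs of arrays, 3 had a correlation of deviations over 0.1 (range -0.23 to 0.32). With 3 arrays a group, such correlations cannot decide whether samples were paired. The file headers give no slide, so no slide block was fitted.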

Additional observations from a re-analysis of the deposited data

Results flagged for a closer look

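Whether the difference from radial glia was equal in the 2 ependymal groups is the same test as SC against LVW above, not a further one. It called 3 of 37 replication genes, a share near the 8.04% of all genes called in either direction. For Mcm5 the difference from radial glia was smaller in SC than in LVW cells by 4.17 (limma, adjusted p = 0.000676). For Fen1 it was smaller by 3.08 (adjusted p = 0.00207) and for Pole by 2.61 (adjusted p = 0.00635), each on the log2 scale with 3 arrays a group. In each case all SC arrays lay above all LVW arrays. Left-out arrays ended none of these 3 calls, and the authors' deposited values ended that of Pole (adjusted p = 0.0757). Endothelial markers averaged 5.02 to 5.23 on the SC arrays and 5.74 to 7.81 on the LVW arrays, with 1 of 5 called lower in SC, while oligodendrocyte markers overlapped (6.42 to 9.26 and 7.65 to 7.92) with 0 of 8 called and 1 at an unadjusted p under 0.05 (limma). The part of either in these differences was not tested.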

How the results depend on the processing

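No result changed sign with a call on both sides. Without background correction the replication genes called fell from 17 to 9 between neurospheres and SC and from 6 to 3 between neurospheres and radial glia. Array weights raised the latter to 16, in a fit that stopped before convergence, and a fit to the 6 arrays compared lowered the count between neurospheres and LVW from 25 to 14. In the authors' deposited values the median difference between neurospheres and LVW was 1.31 in place of 1.99. With 1 array left out the counts ranged from 27 to 33 (LVW from radial glia), 24 to 31 (SC from radial glia), 3 to 4 (SC from LVW), 9 to 19 (neurospheres from SC), 4 to 10 (neurospheres from radial glia) and 18 to 26 (neurospheres from LVW). With the replicate number as a block they were 29, 28, 3, 14, 7 and 25, and no count moved by over 1.5 times. The labels do not say that these numbers pair samples. Over all genes, the fit to 6 arrays called 2001 in place of 3210 between neurospheres and LVW and 292 in place of 766 between SC and LVW, and array weights called 4123 in place of 1933 between neurospheres and radial glia and 4969 in place of 3033 between SC and radial glia. Median scaling moved the median of all genes from -0.05 to 0.23 between neurospheres and radial glia, from -0.19 to -0.02 for LVW and from -0.14 to 0.08 for SC against radial glia, and left 4, 30 and 27 replication genes called. Of the values for single genes under the alternatives, 4568 kept direction and side of the threshold, 89 gained a call and 221 lost one. The causes were not tested. Dim probes limit the ependymal groups, where 9 or 10 of the 42 genes were detected on 0 arrays.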
